A study of Mus musculus with 61 samples.

Results

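The genes described here encode parts of the FGF, TGF-beta, BMP and Wnt signalling pathways. They were taken by gene symbol alone, from a table that lists enhancers with their promoters as known in mouse embryonic stem (ES) cells, and Fgf4 was left out. The rule found 46 of the 5154 genes of that table, with 46 promoters and 257 distinct enhancers. Of the 46, 14 were assigned to FGF signalling and MAP kinase (MAPK) phosphatases, with all Dusp genes placed there by symbol. Another 19 belong to the TGF-beta and BMP pathways and 10 to the Wnt pathway. The other 3 carry a matching symbol and act elsewhere. Skiv2l2 encodes an RNA helicase of the nuclear exosome, Bmp2k a kinase named for its induction by BMP and Tgfbrap1 a subunit of an endosomal tethering complex.

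Fibroblasts from embryos of embryonic day 13.5 (strain Black6-129X1/SvJ) were studied at day 3 of reprogramming to pluripotency. All groups carried the same alleles, Col1a1::tetOP-OKSM, a doxycycline-inducible cassette for Oct4, Klf4, Sox2 and Myc, and R26-M2rtTA, the transactivator that doxycycline switches on. All were grown with doxycycline and ascorbate in ES cell medium with serum and LIF, so the Sox2 that was mapped can include the product of the cassette. Sox2 was immunoprecipitated from cells with a Renilla control hairpin and with the hairpins Chaf1a.166 and Chaf1a.2122, with 1 immunoprecipitate and 1 input library each. Chaf1a is the large subunit of CAF-1, the chaperone that puts histones onto newly copied DNA. Sono-seq, which reads the DNA that sonication releases from cross-linked chromatin and is richer where chromatin is open, was done on 3 libraries labelled CAF-1 knockdown and 3 labelled Renilla. The Sono-seq labels do not name the hairpin. The table gives 1 value per region and condition, and each Sox2 list comes from 1 immunoprecipitate, so no comparison between conditions has a replicate error or a test. No expression values were used here, so neither the knockdown nor the cell type was checked against marker genes.

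In these pathways a secreted ligand binds receptors at the cell surface and the signal ends at transcription factors. FGF signals through receptor tyrosine kinases to ERK, and Sprouty, Spred and Dusp proteins, many of them induced by the signal, dampen it. TGF-beta family ligands act through receptor kinases that phosphorylate Smad proteins, with Smad6 and Smad7 as inhibitors and the Id genes as classic BMP targets. Wnt ligands act through Frizzled receptors and Lrp5 or its relatives to stabilise beta-catenin, which works with TCF factors. In mouse ES cells FGF signalling favours the exit from pluripotency, while BMP and Wnt signals help to maintain it.

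Promoter sequences are shown for 4 genes, 3 with a Sox2 position within 300 bp of the start in all 3 lists and 1, Fzd7, whose promoter held 2 SOX motif matches, the most in any 1 member promoter. Each is the 250 bases before the start, from RefSeq on assembly GRCm38.p6, read 5′ to 3′ on the strand of the gene. Capitals mark the SOX motif AACAANG, or the shorter form AACAAT that was added after the sequences had been seen. Both were searched on both strands, and AACAATG holds both. The Sox2 positions are on mm9, and the RefSeq start need not be the start that the Sono-seq table uses, so a position cannot be placed on a base here.
Dusp6, chr10:99262981-99263230, plus strand: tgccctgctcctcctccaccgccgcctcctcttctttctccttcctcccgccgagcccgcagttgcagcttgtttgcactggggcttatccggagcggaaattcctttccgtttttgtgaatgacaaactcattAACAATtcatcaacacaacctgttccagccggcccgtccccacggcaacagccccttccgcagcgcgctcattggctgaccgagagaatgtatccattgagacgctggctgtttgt
Smad6, chr9:64022060-64022309, minus strand: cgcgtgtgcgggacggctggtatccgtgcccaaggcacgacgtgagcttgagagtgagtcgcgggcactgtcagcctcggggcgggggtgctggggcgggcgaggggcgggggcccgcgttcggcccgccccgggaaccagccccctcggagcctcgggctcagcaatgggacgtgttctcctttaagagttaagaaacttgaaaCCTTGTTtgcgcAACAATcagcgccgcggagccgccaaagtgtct
Spred2, chr11:19924192-19924441, plus strand: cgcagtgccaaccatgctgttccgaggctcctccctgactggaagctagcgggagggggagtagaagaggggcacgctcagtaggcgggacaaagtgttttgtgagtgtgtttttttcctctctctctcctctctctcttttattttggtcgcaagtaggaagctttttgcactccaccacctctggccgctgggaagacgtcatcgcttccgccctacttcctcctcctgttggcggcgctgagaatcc
Fzd7, chr1:59481897-59482146, plus strand: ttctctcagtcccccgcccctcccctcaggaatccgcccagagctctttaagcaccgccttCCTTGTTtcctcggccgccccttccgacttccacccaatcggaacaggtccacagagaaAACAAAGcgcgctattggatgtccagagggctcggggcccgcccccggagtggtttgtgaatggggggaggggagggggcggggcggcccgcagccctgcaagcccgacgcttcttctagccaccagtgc

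Of the 46 genes, 33 had a RefSeq promoter, and 4 of these (Fzd7, Nodal, Smad6 and Tcf7l2) held AACAANG. Over the 3563 genes of the table with a RefSeq promoter the share was 9.26%. Over all 32851 RefSeq promoters it was 12.1%. The shorter AACAAT was found at 4 of the 33 (Dusp6, Fzd10, Smad6 and Tcf7l2), against 5.75% of the genes of the table and 9.42% of all RefSeq promoters. Smad6 held a match of each, the first bases of which lay 45 and 33 bases before the start. Dusp6 held AACAAT alone, with its first base 116 bases before the start, and Spred2 held neither. The 13 genes with no entry were Axin1, Dusp9, Fgf1, Fgfr1, Fzd2, Id1, Lrp5, Skil, Skiv2l2, Smad2, Smad4, Smad7 and Spry4.

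To ask which of these genes Sox2 was found at in control and knockdown cells, positions within 10 kb of each start site were collected from the 3 lists. The Renilla list held a position near 18 of the 46 genes (39.1%, exact 95% interval 25.1 to 54.6), against 29.3% of all genes. The Chaf1a.166 list had 17 (37.0%, 23.2 to 52.5) against 28.5%, and the Chaf1a.2122 list had 21 (45.7%, 30.9 to 61.0) against 33.4%. For each of these lists the background share lies within the interval of the members. All 3 lists had a position near 16 genes (34.8%, 21.4 to 50.2), against 20.8% of all genes, just below that interval, and at least 1 list near 22 (47.8%), against 41.3%. Within 2 kb, Renilla had 13 genes (28.3%, 16.0 to 43.5) against 14.2% of all genes, and Chaf1a.2122 had 14 (30.4%, 17.7 to 45.8) against 16.9%, and both background shares lie below the interval. Chaf1a.166 had 10 (21.7%, 10.9 to 36.4) within 2 kb, against 13.8%, which lies inside it. The intervals are Clopper-Pearson, cover counting error only and take genes as independent. A gene missing from a list is one without a position past the threshold of that list, and read depth is unknown.

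**Figure D1:**
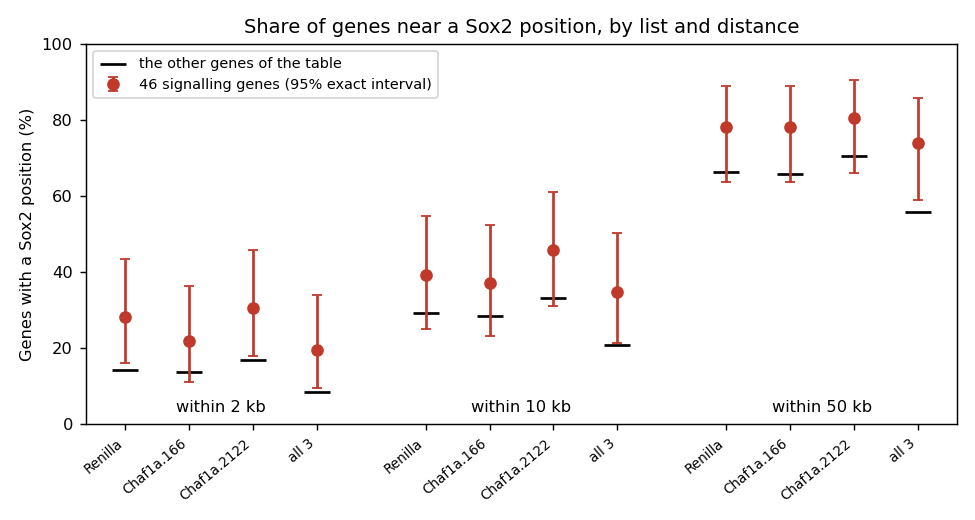
Share of genes with a Sox2 position within 2, 10 and 50 kb of a start site (y axis, %), by list and for genes found in all 3 lists. Points are the 46 signalling genes with exact 95% intervals for counting error, and black bars are the other 5108 genes, which lie below the points at every distance, inside some of the intervals and outside others.

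The 16 genes found in all 3 lists were Dusp1, Dusp6, Dusp14, Spred2, Spry4, Smad6, Smad7, Id1, Id3, Fzd2, Fzd5, Fzd7, Dvl2, Tcf7l1, Tcf7l2 and Tgfbrap1. By role, 9 of the 19 inhibitors, phosphatases and Id genes (47.4%) were among them, against 20.8% of all genes. Of the 16 ligands and receptors 3 were (18.75%), close to the share of all genes, and all 3 were Frizzled genes. At least 1 list had a position at 4 of the 10 receptor genes (Fgfr1, Fzd2, Fzd5 and Fzd7), close to the 41.3% of all genes. None of the 6 ligand genes had a position in any list, and 6 genes are few. None of the 10 ligands and receptors of the FGF, TGF-beta and BMP pathways had a Renilla or Chaf1a.166 position within 10 kb. Of these 10 genes, 1 (Fgfr1) had a Chaf1a.2122 position. The shares of all genes were 29.3% (Renilla), 28.5% (Chaf1a.166) and 33.4% (Chaf1a.2122). The roles were assigned from textbook knowledge with results of these data already seen, so the split by role describes these genes and was not tested.

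The share near Sox2 differed with the Sono-seq level of the promoter among the signalling genes and hardly among other genes. Genes were put into 3 level groups of nearly equal size. In the highest level group, 7 of 16 members (43.75%) had a position in all 3 lists, against 20.7% of 1702 other genes. In the middle group it was 6 of 14 members (42.9%), against 20.7% of 1704. In the lowest group it was 3 of 16 (18.75%), against 20.7% of 1702. The number of genes in each level group is small, and the difference between groups was not tested.

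Among the dampers of FGF signalling, the most strongly scored position belonged to Spred2, which encodes an inhibitor of the Ras to ERK step (chromosome 11, start at 19824444). It lay upstream of the start, at 6324 bp in Renilla, 6286 bp in Chaf1a.166 and 6298 bp in Chaf1a.2122. By the authors' score these positions ranked 598 of 17681, 529 of 15888 and 708 of 19319 in their lists. Spred2 also had the most joined sites of any member, 6 within 10 kb, where positions of the lists within 200 bp of each other were joined. All lists held 3 of the 6, including the one just upstream of the start (135, 275 and 180 bp). That site was weak, with ranks of 10855, 12891 and 16724.

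Spry4, a Sprouty inhibitor of receptor tyrosine kinase signalling on chromosome 18, had a position 240, 281 and 268 bp from its start at 38760922, in the order Renilla, Chaf1a.166 and Chaf1a.2122. The ranks were 2113, 1481 and 2179. The starts of the other Sprouty genes lay far from Sox2. The nearest positions to the start of Spry2 were between 25839 and 25884 bp away, and those to Spry1 between 121139 and 121191 bp. An enhancer of Spry2, at 106322800 on chromosome 14, had positions 925, 880 and 894 bp away in the same list order. These distances exceed the 500 bp within which Sox2 was counted at an enhancer. Spred3 had a single position, of Chaf1a.2122, 1202 bp upstream, while the nearest Renilla and Chaf1a.166 positions lay just outside the window at 12118 and 12040 bp.

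Of the 7 Dusp phosphatase genes, 3 had a position in all lists (42.9%), against 20.8% of all genes. Dusp6, the cytoplasmic ERK phosphatase (chromosome 10, start at 98725864), had a site at its start in all lists, 15 bp (Renilla), 99 bp (Chaf1a.166) and 132 bp (Chaf1a.2122) upstream. A further shared site lay 4820, 4814 and 4843 bp downstream. Another, 2304 and 2272 bp downstream, was in the Renilla and Chaf1a.166 lists, and Chaf1a.2122 had one 2040 bp upstream. Dusp1, a nuclear phosphatase of stress and mitogen responses, had a shared site 1414, 1396 and 1433 bp upstream. Dusp14 had one 1852, 1930 and 1879 bp upstream. Dusp7, a relative of Dusp6, had positions 723 bp (Renilla) and 778 bp (Chaf1a.2122) upstream and none of Chaf1a.166 nearer than 29774 bp. Dusp9, Dusp16 and Dusp18 had none within 10 kb in any list. Dusp18 was the nearest of these, with positions 14167 to 14189 bp away, and Dusp9 the farthest, at 105894 to 105940 bp.

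**Figure D2:**
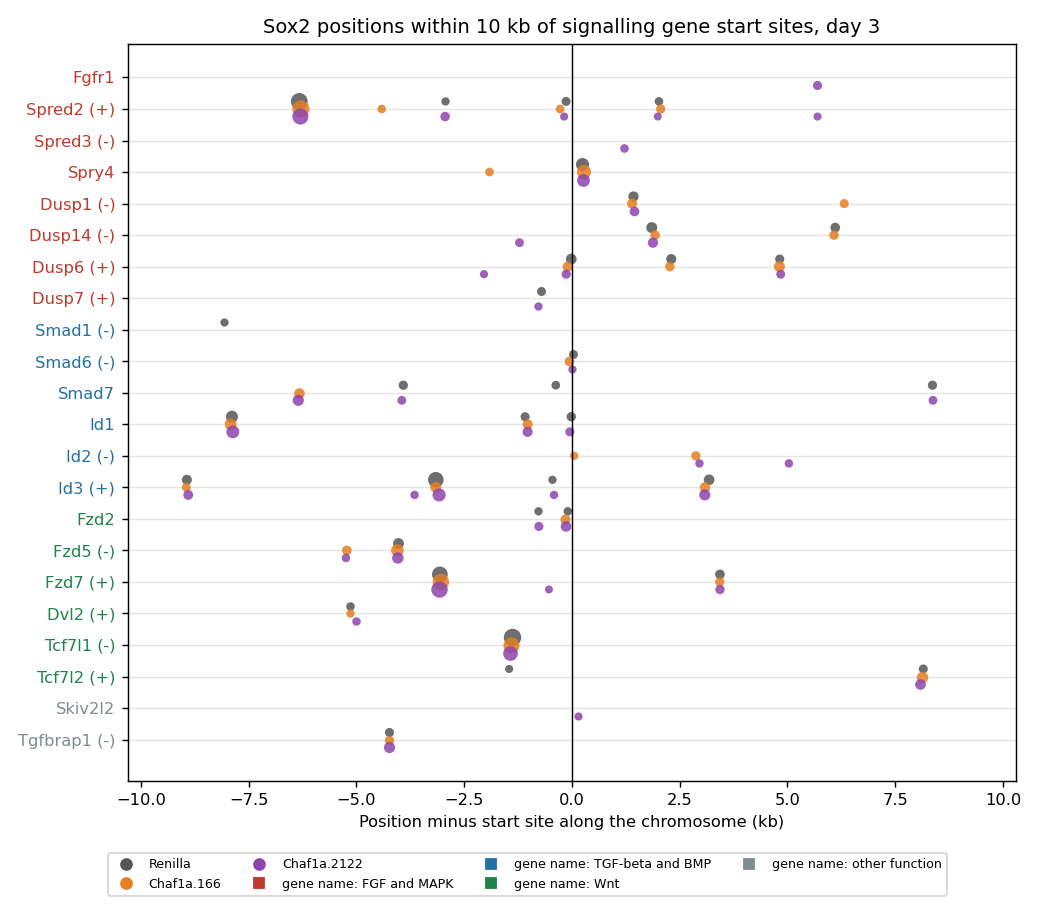
Sox2 positions (points, by list) of the 22 genes with at least 1 position within 10 kb. The x axis is the position minus the start site along the chromosome in kb, the area of a point grows with the authors' score, and the sign after a name is the gene's strand where RefSeq promoters gave it. The points of the 3 lists stack at Spred2, Fzd7 and Tcf7l1, while Id2 has none of Renilla and Smad7 has no place shared by all 3.

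In the BMP branch the positions lay at the inhibitory Smads and the Id genes. Smad6, which blocks BMP receptor signalling (chromosome 9, start at 63869866), had 1 joined site at its start, with positions 15 bp upstream (Renilla), 57 bp downstream (Chaf1a.166) and 6 bp upstream (Chaf1a.2122). The ranks were 11283, 7919 and 16052, so this was a middling to weak site of each list. Smad7, which blocks TGF-beta receptors as well, had 4 joined sites and none held by all 3 lists. The site 6332 bp (Chaf1a.166) and 6347 bp (Chaf1a.2122) away was in both knockdown lists, with ranks of 5698 and 4054. Those at 3911 and 3945 bp and at 8363 and 8374 bp were in Renilla and Chaf1a.2122, and that at 374 bp was in Renilla alone.

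The Id genes encode dominant negative partners of bHLH factors. Id3 (chromosome 4, start at 135699736) had 5 joined sites, 3 of them shared by all lists. The strongest lay upstream at 3156, 3159 and 3081 bp, with ranks of 889 (Renilla), 4818 (Chaf1a.166) and 1925 (Chaf1a.2122). Id1 had shared sites 7886, 7916 and 7865 bp and 1086, 1026 and 1028 bp from its start, and another at 15 bp (Renilla) and 47 bp (Chaf1a.2122). Id2 (chromosome 12, start at 25780957) was the only member near Sox2 in both knockdown lists and not in Renilla. Its shared site lay 2875 bp (Chaf1a.166) and 2958 bp (Chaf1a.2122) upstream. Of all genes, 2.99% were in that class. These positions were weak, with ranks of 9753 of 15888 and 14069 of 19319. Chaf1a.166 had a further position 52 bp upstream and Chaf1a.2122 one 5033 bp upstream, and Renilla had none nearer than 28647 bp.

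The transducing Smads and the receptors of the family had no such sites. Smad1, a BMP Smad, had 1 weak Renilla position 8064 bp downstream, with a rank of 15923, and no knockdown position within 102261 bp. Smad2 and Smad3, which carry Nodal, activin and TGF-beta signals, and Smad4, the common partner, had none within 10 kb. Among ligands, the nearest position to Bmp4 was 26436 bp away (Chaf1a.166) and that to Nodal 42500 bp (Chaf1a.2122). In Renilla the nearest positions to these 2 genes were farther, at 125954 and 152666 bp. Smad2 went the other way, with 18426 bp in Renilla, 41282 bp in Chaf1a.166 and 41278 bp in Chaf1a.2122. All these distances exceed 10 kb, and the differences between lists were not tested. The nearest Sox2 positions to Inha and Inhbb, subunits of inhibin and activin, lay 14623 and 65092 bp away.

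Of the 10 Wnt pathway genes, 6 had a position in all 3 lists, against 20.8% of all genes. Tcf7l1, the TCF repressor of ES cells also known as Tcf3 (chromosome 6, start at 72738950), had 1 site 1382, 1402 and 1438 bp downstream. Its ranks were 471 (Renilla), 765 (Chaf1a.166) and 1107 (Chaf1a.2122), and in Renilla no other member position ranked higher. Fzd7, a Wnt receptor of ES cells (chromosome 1, start at 59538990), had a site 3063, 3039 and 3071 bp upstream with ranks of 863, 690 and 635. Another shared site lay 3433, 3429 and 3433 bp downstream, and Chaf1a.2122 had a weak position 533 bp upstream with a rank of 18655.

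Fzd5 had a shared site 4040, 4048 and 4038 bp downstream. Fzd2 had one 95, 151 and 136 bp from its start. Dvl2, which relays the signal from the receptor, had a weak one 5158, 5153 and 5018 bp upstream. Tcf7l2 had one 8150, 8128 and 8079 bp downstream, with its best rank of 3917 in Chaf1a.166. Renilla alone had another Tcf7l2 position, 1457 bp upstream with a rank of 17159. Wnt9a, Lrp5, Axin1 and Fzd10 had none within 10 kb, and the nearest position to Fzd10 was 516713 bp away.

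Sites at these genes were shared between control and knockdown much as sites elsewhere. Within 10 kb of the 46 starts lay 50 joined sites. All 3 lists shared 22 of them (44.0%, 30.0 to 58.7), against 39.6% of the 2591 sites within 10 kb of any start in the table. Both knockdowns without Renilla held 3 (6.00%), against 7.18%, and Renilla alone held 3 (6.00%), against 11.6%. Of the 46 genes, 15 had a site held by all lists, against 19.7% of all genes. The shared sites were narrow, with a median of 57 bp from the first to the last position. Within 300 bp of the start, 8 of the 46 genes had a position in at least 1 list, against 11.0% of all genes. In all 3 lists there were 5 (Dusp6, Fzd2, Smad6, Spred2 and Spry4), against 3.36%.

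The Sono-seq values asked whether the regions of these genes were more accessible with CAF-1 knockdown. Their promoters were as open as other promoters and differed little between conditions as a group. The unit of the deposited values is unknown. Members had median promoter values of 0.140 (CAF-1) and 0.150 (Renilla), and the whole table had 0.141 and 0.143. On the log2 scale, the ratio of CAF-1 to Renilla had a median of -0.040 for the 46 promoters (order-statistic interval over promoters -0.11 to 0.12), against -0.0093 for all 5513. Of the 46, 21 (45.7%, 30.9 to 61.0) were higher in CAF-1, against 48.2% of all promoters. A difference of 1.25-fold or more towards CAF-1 was found at 2 of 46, against 6.68% of all, and towards Renilla at 6 of 46 (13.0%), against 8.98%. The SD over the 46 was 0.22, and 0.23 over all promoters.

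Among FGF genes, 5 of 14 promoters were higher in CAF-1 (35.7%, 12.8 to 64.9) and 9 lower, against 48.2% of all promoters higher. FGF and MAPK genes outside the set went the other way, with 10 of 16 promoters higher and a median of 0.044. Fgf1, the only FGF ligand of the set, had a CAF-1 value of 0.152 and a Renilla value of 0.191, a log2 ratio of -0.33. Its receptor gene Fgfr1 had 0.134 and 0.125 (0.10). Of the 5 Sprouty and Spred promoters 4 were lower, with 0.0921 and 0.118 at Spry2 (-0.36) and 0.137 and 0.172 at Spred3 (-0.34). The level of Spry2 was low, at percentile 7.65 of all promoters. The promoters of Spred2 and Spry1 hardly differed (-0.047 and -0.057), and Spry4 was higher (0.148 and 0.131, 0.18).

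The phosphatase promoters went both ways. Dusp14 had the lowest ratio of all 46, with 0.123 in CAF-1 and 0.167 in Renilla (-0.44). Dusp1 had among the highest levels of the set, at percentile 97.5 of all promoters, and equal values of 0.195 and 0.195. Dusp9, an ERK phosphatase on the X chromosome, had low values of 0.117 and 0.0966 (0.28). Dusp6, with Sox2 at its start in every list, had 0.168 and 0.178 (-0.081).

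In the TGF-beta and BMP pathways, 7 of 19 promoters were higher in CAF-1 (36.8%, 16.3 to 61.6), against 48.2% of all promoters, and those of all 4 receptors were lower. Genes of these pathways outside the set had 6 of 13 promoters higher and a median of -0.0030. These 13 promoters belong to 9 genes, and Tgif1 counts repeatedly, with 0.15, -0.25, -0.33, -0.19 and -0.15 at its start sites. Bmpr1a, a type I BMP receptor, had 0.0929 in CAF-1 and 0.118 in Renilla (-0.35). Its type II partner Bmpr2 had 0.0973 and 0.115 (-0.24). The activin and Nodal receptors Acvr1b and Acvr2b had ratios of -0.22 and -0.14. The receptors thus share a sign, while 1 of the 4 passed 1.25-fold. Bmpr1a and Bmpr2 had low levels, at percentiles 8.04 and 8.36 of all promoters. In the lowest level group, 42.3% of the other genes were higher in CAF-1.

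The Smad promoters differed from each other. Smad4 had 0.121 in CAF-1 and 0.0869 in Renilla (0.48), and Smad1 had 0.109 and 0.148 (-0.44), next to the lowest ratio of the set. The level of Smad4 was low, at percentile 7.22 of all promoters. Smad2 and Smad3 had 0.16 and -0.094, and the inhibitory Smad6 and Smad7 0.20 and 0.065. Among ligands, Bmp4 had 0.119 and 0.0970 (0.29), Nodal 0.161 and 0.165 (-0.034) and Inhbb 0.139 and 0.156 (-0.16). The level of Bmp4 was low as well, at percentile 9.05. Smurf1, a ubiquitin ligase that removes Smads and receptors, had -0.22, and Skil, a Smad corepressor, had -0.060. The Id promoters had -0.078 (Id1), 0.14 (Id2) and -0.14 (Id3).

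**Figure D3:**
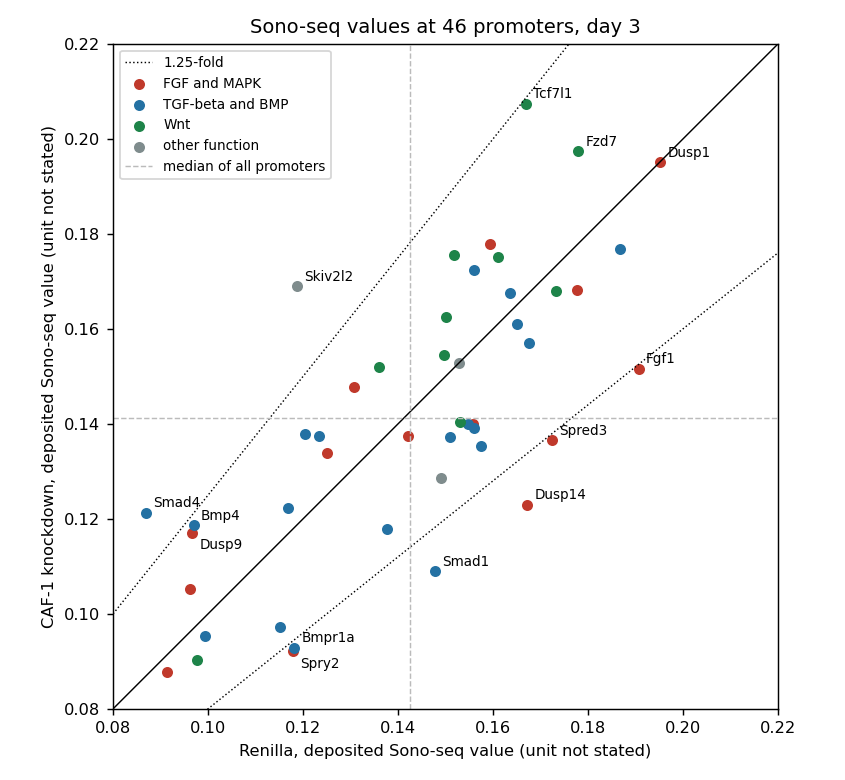
Sono-seq values of the 46 promoters, Renilla (x axis) against CAF-1 knockdown (y axis), in the authors' values of unstated unit. The solid line marks equal values and the dotted lines 1.25-fold: Smad4 and Skiv2l2 lie above the upper line, 6 promoters from Dusp14 to Fgf1 below the lower one, and 7 of the 10 Wnt promoters (green) above the solid line.

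Of the 10 Wnt promoters, 7 were higher in CAF-1 (exact 95% interval of the share 34.8 to 93.3%), with a median of 0.12, against 48.2% of all promoters. Wnt pathway genes outside the set did not lean, with 9 of 18 promoters higher and a median of 0.0011. Tcf7l1 had the highest CAF-1 value of all 46, 0.207 against 0.167 in Renilla (0.31). Wnt9a had 0.175 and 0.152 (0.21). Fzd2, Fzd7, Fzd5 and Lrp5 had ratios from 0.12 to 0.16, and Fzd10, at -0.12, was the exception among the Wnt receptors. None of the 10 passed 1.25-fold. The largest ratio among the 46 was that of Skiv2l2, outside the pathways, with 0.169 and 0.119 (0.51).

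By level group, the members' medians were 0.0041 (lowest, n = 16), -0.13 (middle, n = 14) and 0.017 (highest, n = 16). Those of other genes rose with level, from -0.046 through -0.0087 to 0.023. The middle group thus stood lowest among the members, with 5 of 14 promoters higher in CAF-1, against 47.8% of 1704 other genes. With so few genes per group, this difference was not tested. Promoters of the 16 genes with Sox2 in all lists had a median of -0.00025, and those of the 24 genes without a position -0.077. Over all promoters of the table the order was the other way, with -0.013 (n = 1170) and -0.00049 (n = 3218).

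The 257 enhancers assigned to these genes had a median log2 ratio of 0.033 (0.0050 to 0.062), against 0.028 for all 14265. With the mean of each gene's enhancers as 1 value per gene, the members' median was 0.0033, against 0.031 over all genes. The small lean to CAF-1 thus depended on how the enhancers were summarised. Higher in CAF-1 were 147 (57.2%, 50.9 to 63.3), against 55.3% of all. At 1.25-fold, 18 (7.0%) were higher, against 10.3%, and 18 (7.0%) lower, against 6.58%. Enhancer levels were near those of the table, with medians of 0.147 (CAF-1) and 0.144 (Renilla) against 0.140 and 0.137. The members had a median of 4 enhancers per gene, against 3 for all genes.

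Nodal, the ligand that patterns the early embryo, had 8 of 9 enhancers higher in CAF-1 (mean 0.13 ± 0.20, SD over enhancers). The largest ratio was 0.64, at 60789300 on chromosome 10 (CAF-1 value 0.166, Renilla value 0.107), and the other 7 that were higher had ratios of at most 0.15. Acvr1b, a Nodal receptor, had both enhancers higher, with 0.187 and 0.152 (0.30) at 101010400 and 0.241 and 0.194 (0.32) at 101028200 on chromosome 15. Bmpr1a had 4 of 5 higher. Both genes thus had a lower promoter and mostly higher enhancers. The other receptor genes did not share this, since the 1 enhancer of Acvr2b was lower (-0.067) and the 2 of Bmpr2 had -0.45 and 0.068. In all, 7 of the 10 enhancers of the 4 receptor genes were higher, 6 of them from Acvr1b and Bmpr1a, against 55.3% of all enhancers. Fgf1, with a lower promoter, had 5 of 6 enhancers higher.

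Among Sprouty genes, the enhancers of Spry2 and Spry1 were lower and those of Spry4 were split. The 3 of Spry2 had ratios of -0.24, -0.45 and -0.29, and the 1 of Spry1 had -0.41. Spry4 had 2 higher (0.27 and 0.21) and 2 lower (-0.46 and -0.053). Against 55.3% of all enhancers higher in CAF-1, 5 of the 6 enhancers of Id1, Id2 and Id3 were lower, with a median of -0.18. The lowest of these belonged to Id3, with a CAF-1 value of 0.0931, a Renilla value of 0.135 and a ratio of -0.53 (chromosome 4, 135683600). Dusp6 had 3 of 4 lower, down to -0.45 at 98732650 on chromosome 10. The enhancers of Spry2 had low levels, between percentiles 7.91 and 29.5 of all enhancers. The Id3 enhancer with the lowest ratio was also low, at percentile 16.2, while the Id1 enhancer was at percentile 96.5.

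The genes with most enhancers were Spred2 (23), Tcf7l2 (21), Tcf7l1 (15), Smad6 (14) and Smurf1 (13). Their enhancers went both ways. Spred2 had 12 of 23 higher (mean -0.020 ± 0.22), Tcf7l2 12 of 21 (-0.025 ± 0.19), Tcf7l1 8 of 15 (-0.071 ± 0.22), Smad6 8 of 14 (0.061 ± 0.14) and Smurf1 7 of 13 (0.083 ± 0.27).

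Where the level exceeded the median of the table, Smurf1 had the 2 enhancers with the highest ratios, on chromosome 5 at 145689900 (CAF-1 0.193, Renilla 0.132, ratio 0.54) and 145704850 (0.200 and 0.138, 0.53). They were followed by enhancers of Dusp1 (0.52, chromosome 17 at 26588700), Smad6 (0.40) and Bmpr1a (0.40). The lowest were enhancers of Spred2 (0.137 and 0.196, -0.51, chromosome 11 at 19843200), Tcf7l2 (-0.49), Smad3 (-0.48), Tcf7l1 (-0.34) and Lrp5 (-0.31). Smad3, with a median of 0.20 over 12 enhancers, thus also held 1 of the lowest.

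**Figure D4:**
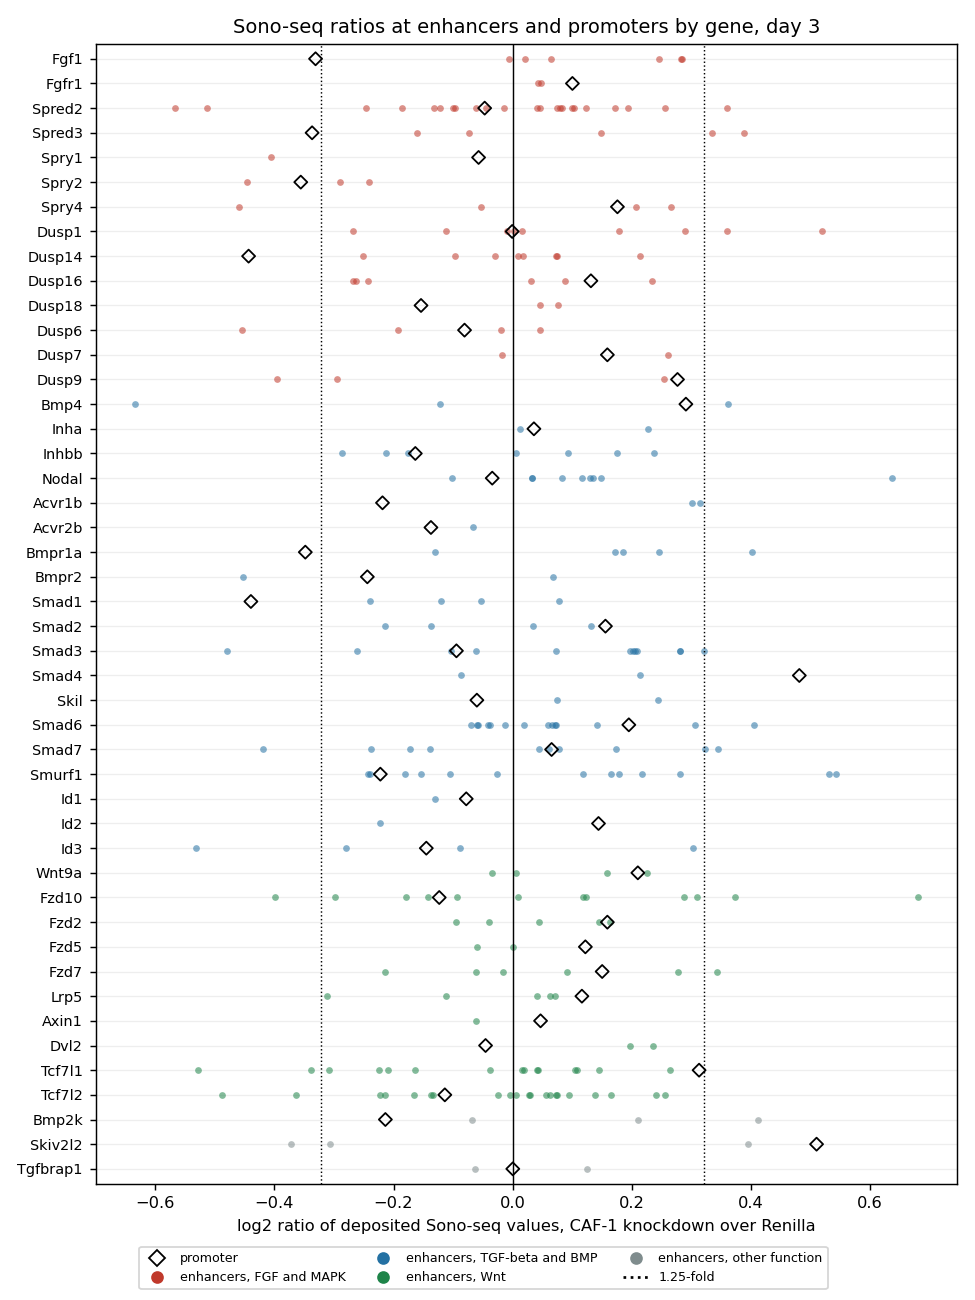
log2 ratio of Sono-seq values, CAF-1 knockdown over Renilla (x axis), for each promoter (diamonds) and enhancer (points) of the 46 genes, with 1.25-fold as dotted lines. The promoters of Acvr1b, Bmpr1a and Fgf1 lie left of 0 with most of their enhancers to the right, and all regions of Spry2 lie left of 0.

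Promoter and enhancers of a gene did not move together. The promoter and the mean of the enhancers had the same sign in 21 of 46 genes, against 49.9% of all genes. Across the 46 genes Pearson's r was -0.11 and Spearman's rho -0.15, and across all 5154 genes 0.026 and 0.014. Genes are not independent replicates, and all ratios share the same libraries.

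A Sox2 position within 500 bp was found at 14 of the 257 enhancers (5.45%) in at least 1 list, against 4.78% of all enhancers, and at 9 in all 3 lists, against 2.22%. The 9 belong to Tcf7l2 (3), Dusp14 (2), Bmpr1a, Bmp2k, Smad7 and Smurf1. The Tcf7l2 enhancer on chromosome 19 at 55942950, among the lowest ratios above, was one of them, with positions 343, 396 and 345 bp away and values of 0.125 in CAF-1 and 0.176 in Renilla. The Smad7 enhancer on chromosome 18 at 75594450 went the other way, with 0.175 and 0.138 (0.35) and positions 180, 192 and 165 bp away. Bmpr1a, with no position within 10 kb of its start, had one at an enhancer 48332 bp from it (260, 249 and 249 bp). The 14 enhancers with Sox2 had a median ratio of -0.049, and the 243 without had 0.041. Of the 14, 6 were higher in CAF-1 (42.9%, 17.7 to 71.1), against 51.3% of all enhancers with Sox2. Among all enhancers the medians were 0.0059 (n = 682) and 0.029 (n = 13583).

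Other genes of the same pathways whose symbols the rule does not match were looked up as well. Of 93 such genes listed, 41 were in the table. Renilla positions lay within 10 kb of 15 of the 41 (36.6%, against 29.3% of all genes). Chaf1a.166 positions lay near 12 (29.3%, against 28.5%) and Chaf1a.2122 positions near 18 (43.9%, against 33.4%). All lists had a position near 10 (24.4%, against 20.8%). The 10 include Etv5 (328, 315 and 1005 bp), an ETS factor induced by FGF, and Tle3 (62, 114 and 106 bp), a corepressor of TCF factors. Etv4, a relative of Etv5, had knockdown positions at 109 bp (Chaf1a.166) and 68 bp (Chaf1a.2122) and its nearest Renilla position at 12665 bp. Its promoter had the lowest ratio of the 47 in this list, -0.56, from values of 0.129 (CAF-1) and 0.189 (Renilla). The highest was that of Bambi, a decoy receptor of the TGF-beta family, with 0.172 and 0.121 (0.51). Of the 47 promoters 25 (53.2%) were higher in CAF-1, against 48.2% of all promoters. By 1.25-fold or more, 4 were higher, against 6.68% of all, and 6 were lower, against 8.98%. The 47 belong to 41 genes, since Tgif1, Ctnnb1 and Shc1 have more than 1 start site.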

How the data were processed

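The submitters' processing notes name the build mm9 and the aligners BWA 0.7.8 and Bowtie, without saying which library each served. For the caller of Sox2 positions, the name was not given in the sources used here. Each deposited position has a score, a false discovery rate (q-value, at most 0.000644 in any list) and a fold enrichment of immunoprecipitate over input with a lower bound, per the file headers. These values of the authors were used only to rank or filter positions within their list. Per the file headers, the Sono-seq table gives 1 value per condition at published ES cell enhancers and promoters; its unit, scaling and the merging of 3 libraries are not stated, so the deposited values were treated as a score.

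From these, log2 ratios were computed without a pseudocount, since no value was 0. Symbols turned into dates (136 rows) were restored through RefSeq transcripts. Sox2 was counted at a gene if any start site had a position no more than 10 kb away. Upstream and downstream follow the strand in the RefSeq promoter table, and mm9 gene models were not used, so positions are not assigned to exons or introns. Positions of the 3 lists within 200 bp were joined. The 3 level groups are over all genes by mean promoter value. Named are members near Sox2, the 5 highest and 5 lowest ratios among promoters and enhancers above the median level, the 5 members with most enhancers, and members by role. Other pathway genes and single enhancers outside this rule were named after their values were seen. Members, roles and gene lists were chosen with earlier results of these data known. The distance and joining code was tested on simulated positions. Python 3.11.15, pandas 2.3.3, NumPy 2.4.6 and SciPy 1.17.1 were used. The other 49 of 61 samples were not analysed here.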

Additional observations from a re-analysis of the deposited data

How the results depend on the processing

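No paired analysis was possible because Sono-seq has a single deposited value per condition and each Sox2 list a single immunoprecipitate; for that reason no replicate could be left out either. The median of member promoters lay between -0.059 and -0.034 under the alternatives tried (equal medians over all regions, regions above the median level, a pseudocount of 0.01, 1 value per gene, and without the 3 genes outside the pathways). That of member enhancers lay between 0.013 and 0.033, except with 1 value per gene. With the mean of each gene's enhancers as that value it was 0.0033, against 0.031 over all genes. Within 50 kb, 36 members were near a Renilla position, 36 near Chaf1a.166, 37 near Chaf1a.2122 and 34 in all 3 lists, against 66.5%, 65.8%, 70.5% and 55.9% of all genes. Within 2 kb, 13 were near Renilla, 10 near Chaf1a.166, 14 near Chaf1a.2122 and 9 in all 3 lists, against 14.2%, 13.8%, 16.9% and 8.50%. An enrichment lower bound of at least 2 left 14 members in all 3 lists (30.4%), against 11.8% of all genes, and lists of equal length left 15. Leaving out genes outside the pathways, added after seeing the data, left 15 of 43. Read depth is unknown, which limits statements on missing positions.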

Other observations

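Several members are chromosomal neighbours. Smad3 and Smad6 start 264065 bp apart on chromosome 9, Fzd7 and Bmpr2 282490 bp apart on chromosome 1, Spry4 and Fgf1 317431 bp apart on chromosome 18, and Axin1 and Dusp1 369787 bp apart on chromosome 17. In each of these pairs 1 gene (Smad6, Fzd7, Spry4 and Dusp1) had Sox2 within 10 kb in all 3 lists and the other had none in any list. Among all 46 members, 16 had a position in all 3 lists and 24 in none. The pairs are few, and their pattern was not tested. The table assigned no enhancer to more than 1 member. Within 50 kb of the start, Dusp14 had the most joined Sox2 sites of the set, 10, followed by Smad7 with 8 and Dusp6 with 7.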
